A study of Mus musculus with 12 samples.

Results

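The 76 genes described here encode proteins of the mitochondrial ribosome, and were taken as every gene whose platform symbol begins with Mrpl or Mrps followed by a digit. They are 76 of the 16593 genes with a named probe on the array, and each is represented by the brightest of its probes over the 12 arrays. By the present assignment of the proteins 49 belong to the large subunit and 26 to the small subunit, and Mrps36 was assigned to neither. Mrps18a and Mrps30 are counted with the large subunit, where their products sit in spite of their names. Signal above background was found for 70 of the 76, and for 69 of them on each of the 12 arrays. Mrpl19, Mrpl21, Mrpl32, Mrpl45, Mrps14 and Mrps36 were detected on none and have no value below, and Mrpl51 was detected on every array except that of E4.

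The mitochondrial ribosome translates the few messenger RNAs that the mitochondrial genome encodes, all of them for subunits of the oxidative phosphorylation complexes. Its ribosomal RNAs come from the mitochondrial genome, whereas all of its proteins are encoded in the nucleus, made in the cytosol and imported. Some of the proteins have counterparts in the bacterial ribosome and the others occur only in mitochondria. In astrocytes, which are strongly glycolytic, mitochondria also serve in glutamate handling and in the response to inflammatory stimuli.

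RNA came from mouse astrocytes that were grown out of neural stem cells of the Rosa25/OG2 line by 4 days in 10% fetal calf serum and 14 further days of maturation. Each of 10 compounds, known here only as E33, E29, E23, E21, E20, E19, E18, E14, E5 and E4, was given for 4 h to cells activated with 1 µg/ml LPS (lipopolysaccharide, a bacterial cell wall component) and 10 ng/ml IFN-γ (interferon-gamma). The activated control received both stimuli and no compound, and the non-activated control received neither. All 12 groups thus share the cell line and the culture, and the labels give no dose and no structure for any compound. Each group is 1 array, so the differences below have no measured error, no test was possible, and all 10 compounds share 1 activated control.

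A value is a background-corrected, quantile-normalised log2 intensity, and a difference of 1 log2 unit is a 2-fold difference. A gene counted as higher or lower where the difference reached 2-fold, and a 1.5-fold count is given beside it. A gene entered a comparison where either of the arrays compared detected it at a p-value under 0.01. With bulk RNA, fewer cells of a type and less RNA per cell cannot be told apart. Detected probes numbered 9106 with E29, which had the fewest, and up to 10719 in the non-activated control. Of the astrocyte markers 8 of 9 were detected, and their summed level lay between 15.19 and 15.60 log2 units on the 12 arrays. The highest sum, 15.60, was that of E29. Microglial markers were detected for 0 of 11 genes. The levels of single astrocyte and stem cell markers also differed, in both directions. Sox9 was 2.60-fold and Sox2 2.17-fold lower on activation, and Sox2 was 3.17-fold lower with E29. In the other direction Slc1a2 was 1.97-fold higher on activation, and with E29 Aldh1l1 was 2.16-fold and Fabp7 1.91-fold higher. Of 7 neuronal markers 3 were detected, and their summed level was 11.92 with E29, against 11.42 in the activated control, with Syt1 2.86-fold higher. Of 6 oligodendrocyte markers Cnp alone was detected, 2.47-fold higher with E29. Of 5 stem cell markers 3 were detected, with summed levels from 11.14 to 11.76. The part of these shifts in the results below was not tested.

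The levels of the mitochondrial ribosomal protein genes varied little over most of the arrays. Over the 10 activated arrays other than E29 the range from the lowest to the highest array had a median of 0.45 log2 units for the 70 detected members, against 0.53 over all 7933 genes. Over all 12 arrays the median range was 0.63 log2 units for the members, 0.33 for 53 genes of cytosolic ribosomal proteins, 0.41 for 67 nuclear genes of oxidative phosphorylation and 0.88 over all 8128 genes. Mrpl10, which encodes the large-subunit protein that anchors the stalk, had the smallest range of the members, 0.29. Mrps31, which encodes a mitochondria-specific protein of the small subunit, had the largest, 2.23.

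**Figure D1:**
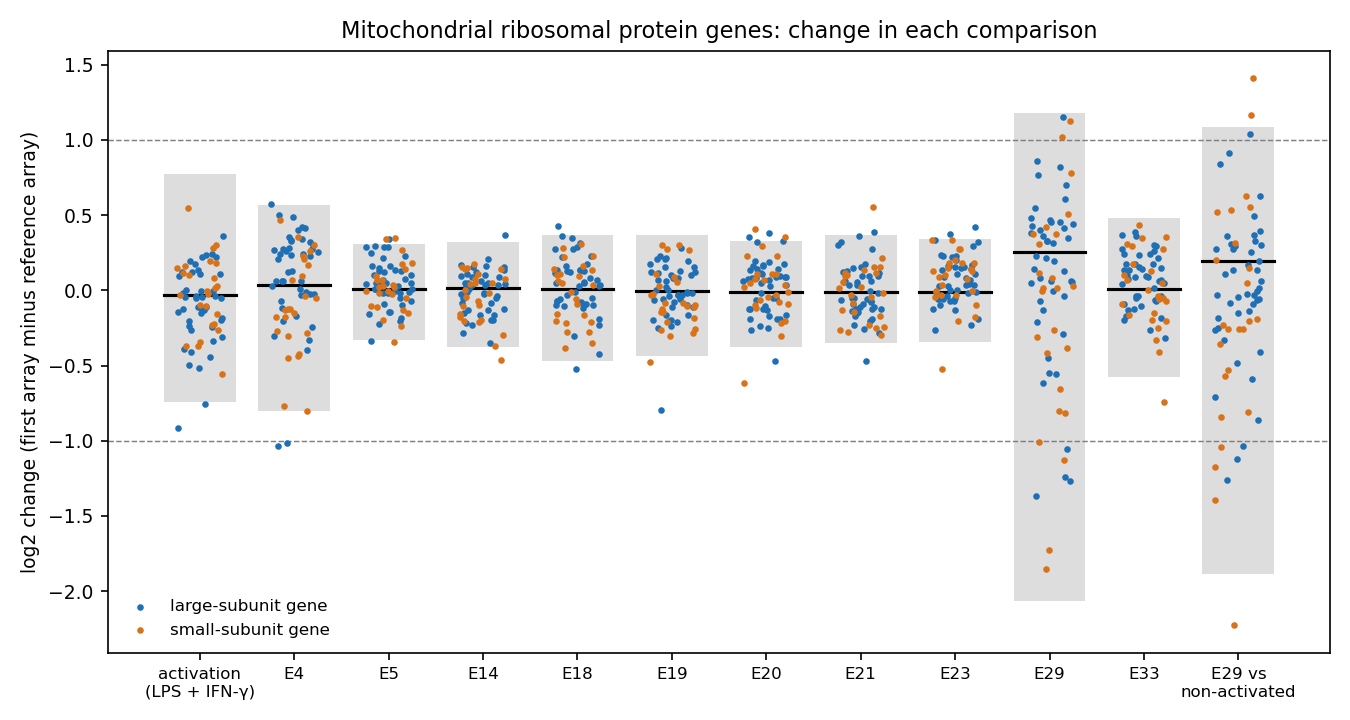
Log2 change of each of the 70 detected members (points, blue for large-subunit and orange for small-subunit genes) in the 12 comparisons, each of 1 array against 1 reference array; the first is activation, the next 10 are compounds against the activated control and the last is E29 against the non-activated control. Grey boxes span the 5th to 95th percentile of all measured genes, black lines mark their median and dashed lines mark 2-fold; members passed 2-fold in the E4 and E29 comparisons.

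The compound E29 gave the widest spread of values, with members on both sides. Of 70 measured members 11 differed at least 2-fold from the activated control, which is 15.7%, and 24.7% of all 7472 measured genes did so. The 8 lower members were Mrps31, Mrps2, Mrpl1, Mrpl47, Mrpl46, Mrps22, Mrps30 and Mrps18b, against a background of 14.5% of all genes at least 2-fold lower. The 3 higher members were Mrpl15, Mrps15 and Mrps25, against a background of 10.2% at least 2-fold higher. At 1.5-fold 21 members were counted, 9 higher and 12 lower, which is 30% against 51% of all genes. The median of the members was 0.10 log2 units, and that of all measured genes 0.26, a difference of -0.157. This difference was 0.03 with no detection filter and -0.038 under each of 3 other scalings. Those 3 replace quantile normalisation by a constant per array. They therefore give the same difference by construction and count as 1 alternative for it. Genes detected in the activated control and not with E29 were raised to the lowest detected level of E29, 5.99. Those below that level in the control enter the median of all genes as higher. All 70 members were detected with E29. Scaling to a common median put the median of all genes at 0.338 and gave 3 members higher and 7 lower. Of all genes 10.3% were then higher and 15.6% lower. The other 2 scalings shifted the median of all genes by over 0.1 log2 units, to -0.071 under the median ratio and -0.345 under 6 reference genes. The reference genes were not level with E29. Their changes as reported were 0.34 for Gapdh, 0.11 for Actb, 0.29 for Hprt, 0.01 for Ywhaz, 0.93 for Gusb and 0.91 for Tfrc. Tfrc also gave 0.76 on activation. Counts under the reference genes carry these changes. With the median ratio 0 members were higher and 10 lower, and with the reference genes 0 were higher and 15 lower. All genes then split into 1.51% higher and 22.1% lower under the median ratio, and 0.428% higher and 27.7% lower under the reference genes.

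Mrps31 had the largest decrease with E29. Its level was 8.18 log2 units with E29, against 10.04 in the activated control. On the other compound arrays it was 9.61 with E4, 10.07 with E5, 9.74 with E14, 9.98 with E18, 9.94 with E19, 10.06 with E20, 9.90 with E21, 10.00 with E23 and 9.83 with E33, and in the non-activated control it was 10.41. The E29 array thus lay below all 11 others, with a fold of 3.62. The other detected probes of Mrps31 gave log2 changes of -1.56 and -1.37 beside the -1.86 of the brightest.

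Mrps2, whose product is a small-subunit protein shared with bacteria, stood at 6.07 with E29, against 7.79 in the activated control. The 10 activated arrays other than E29 ran from 7.46 to 7.94 with a median of 7.73, and the non-activated control was at 7.24. E29 was therefore the lowest array for Mrps2 as well, by 3.30-fold against the activated control. The level of Mrps2 with E29 was close to the lowest detected level of that array, 5.99.

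Mrps22, a mitochondria-specific small-subunit gene in which human mutations cause a mitochondrial disease, was at 8.08 with E29, against 9.21 in the activated control and 9.48 in the non-activated control. The E4 array was the next lowest for Mrps22 at 8.45, and the 10 activated arrays other than E29 had a median of 8.98. Set against that median Mrps22 was lower with E29 by a log2 difference of -0.90, which does not reach 2-fold. Mrps18b, 1 of 3 genes related to the bacterial S18 protein, was at 8.25 with E29, against 9.27 in the activated control, with the other activated arrays between 9.14 and 9.62. Its second probe gave a log2 change of -0.58 beside the -1.01 of the brightest. The other 2 genes of that trio lay near 0, with changes of 0.22 for Mrps18a and 0.02 for Mrps18c.

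In the large subunit the lower members included proteins of several regions. Mrpl1, which encodes the protein of the L1 stalk where the tRNA leaves the ribosome, was at 6.59 with E29, against 7.96 in the activated control. The other activated arrays ran from 6.92 to 7.96 for Mrpl1, and the activated control was the highest of them. Mrpl47, whose bacterial counterpart lies by the exit of the peptide tunnel, was at 7.69 with E29, against 8.96 in the activated control and 8.72 to 9.18 over the other activated arrays. The second, dim probe of Mrpl47 gave a change of -0.09 beside the -1.27 of the brightest, so the probes disagreed. Mrps30, a mitochondria-specific large-subunit gene, was at 9.38 with E29, against 10.44 in the activated control and 10.19 to 10.47 over the other activated arrays.

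Mrpl46, a mitochondria-specific gene of the central protuberance, was at 8.85 with E29, against 10.09 in the activated control. The other activated arrays lay between 9.98 and 10.47, and the non-activated control at 9.97. Mrpl46 faces another member, Mrps11, head to head: the 2 genes start 42 bp apart on opposite strands of mouse chromosome 7 in RefSeq's GRCm38.p6. Mrps11, a small-subunit gene shared with bacteria, was at 9.50 with E29, against 8.99 in the activated control, with the other activated arrays between 8.89 and 9.34. E29 was thus the lowest array for Mrpl46 and the highest for Mrps11, with log2 changes of -1.24 and 0.51, and the second probe of Mrps11 also gave 0.51. The RefSeq promoter window of Mrpl46 is shown because it holds the starts of both genes; it lies at chr7:78783040-78783339 on the minus strand of GRCm38.p6, has 250 bases before the Mrpl46 start and 50 after it, and reads 5′ to 3′:
Mrpl46: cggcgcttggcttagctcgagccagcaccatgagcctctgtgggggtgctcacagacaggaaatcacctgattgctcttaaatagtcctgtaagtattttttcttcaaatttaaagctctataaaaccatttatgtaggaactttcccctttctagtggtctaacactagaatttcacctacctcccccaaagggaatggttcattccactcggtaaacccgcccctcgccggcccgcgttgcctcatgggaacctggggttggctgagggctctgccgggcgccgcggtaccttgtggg
None of the NRF1, ETS and YY1 motif letters given below were in this window, so it has no capitals. The window of Mrps11 itself, at chr7:78782881-78783180, reaches beyond the stretch shown and held 1 match to the YY1 letters.

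**Figure D2:**
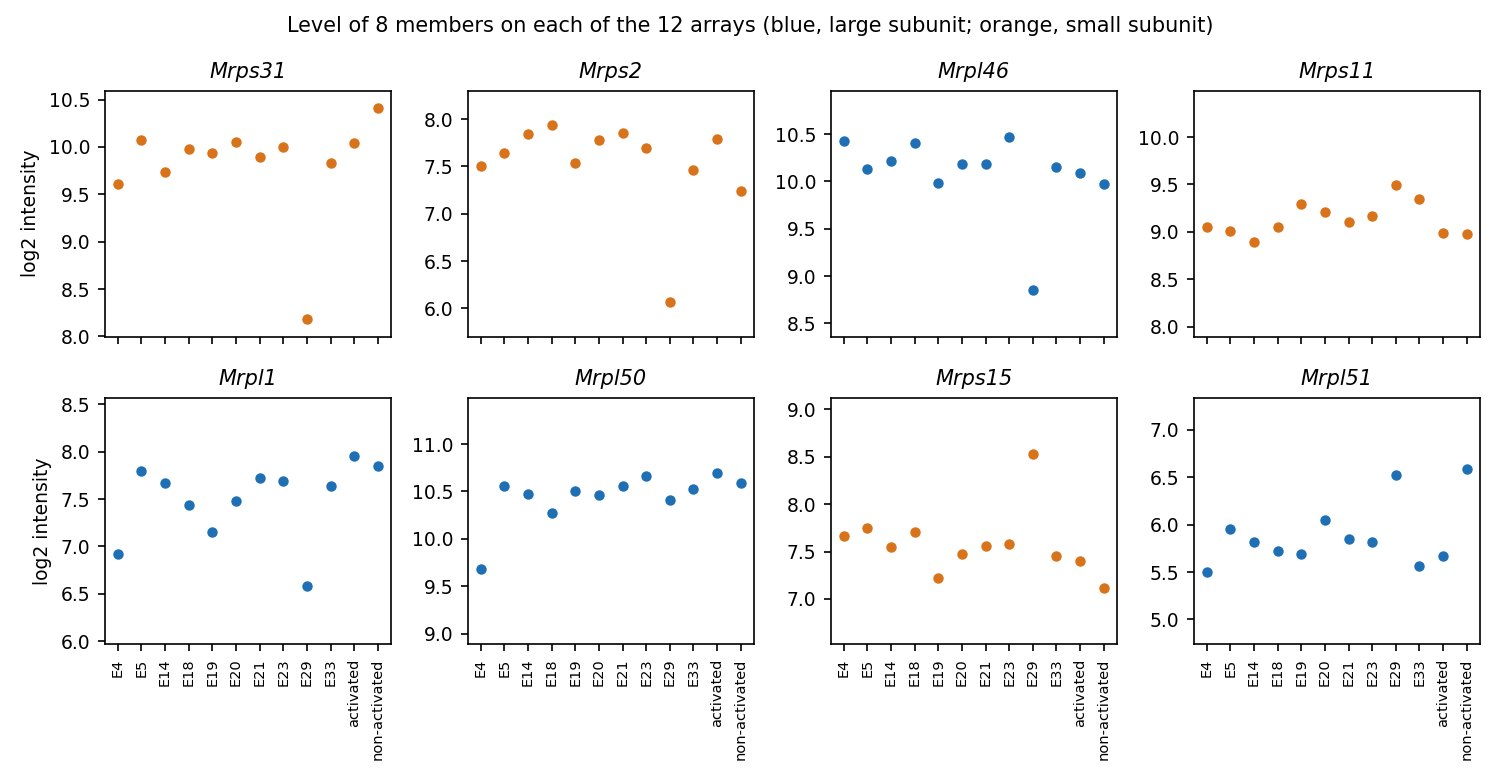
Normalised log2 intensity of 8 members on each of the 12 arrays, with the compounds at the left and the activated and non-activated controls at the right of each panel (blue, large subunit; orange, small subunit; every panel spans the same number of log2 units). E29 is the lowest array for Mrps31, Mrps2, Mrpl46 and Mrpl1 and the highest of the activated arrays for Mrps11, Mrps15 and Mrpl51, and E4 is the lowest array for Mrpl50. Mrpl51 was not detected with E4 and is drawn at that array's floor.

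The higher members with E29 had dim signals, as did some of the lower ones. The mean intensity over the arrays was 170.4 for Mrpl15, 289.5 for Mrps15 and 267.2 for Mrps25. It was 290.9 for Mrps2 and 286.0 for Mrpl1. Mrpl15, a large-subunit gene shared with bacteria, was at 7.19 with E29, against 6.03 in the activated control, where the lowest detected level was 5.52. The other activated arrays ran from 5.87 to 6.45 for Mrpl15. Mrps15, a small-subunit gene shared with bacteria, was at 8.53 with E29, against 7.40 in the activated control and 7.12 in the non-activated control, and the other activated arrays lay between 7.22 and 7.75. Mrps25, a mitochondria-specific small-subunit gene, was at 8.19 with E29, against 7.17 in the activated control. Its other detected probes gave log2 changes of 1.00 and 1.16 with E29 beside the 1.02 of the brightest. For each of these 3 genes E29 was the highest of the 12 arrays. The next largest increases were 0.86 for Mrpl51, 0.82 for Mrpl57 and 0.78 for Mrps21.

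Among genes of well-known functional sites, Mrps12, the decoding-centre protein, was at 9.45 with E29, against 10.26 in the activated control, and E29 was the lowest of the 12 arrays. Mrpl12, the stalk protein that binds translation factors, was at 9.57 with E29, against 10.12 in the activated control, and again below the other 10 activated arrays. These differences of -0.82 and -0.55 log2 units stayed within 2-fold. Mrps26 gave -0.80, with -0.64 at its second probe. Mrpl13 was at 11.81 with E29, against 11.76 in the activated control at its brightest probe, whereas a dim probe of Mrpl13 gave a change of 1.19. The 2 probes of Mrps7 disagreed in direction, with changes of -0.26 and 0.28. Over the members with further detected probes, 21 of 23 such probes had the direction of the brightest with E29. Mrpl41 was not analysed here.

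**Figure D3:**
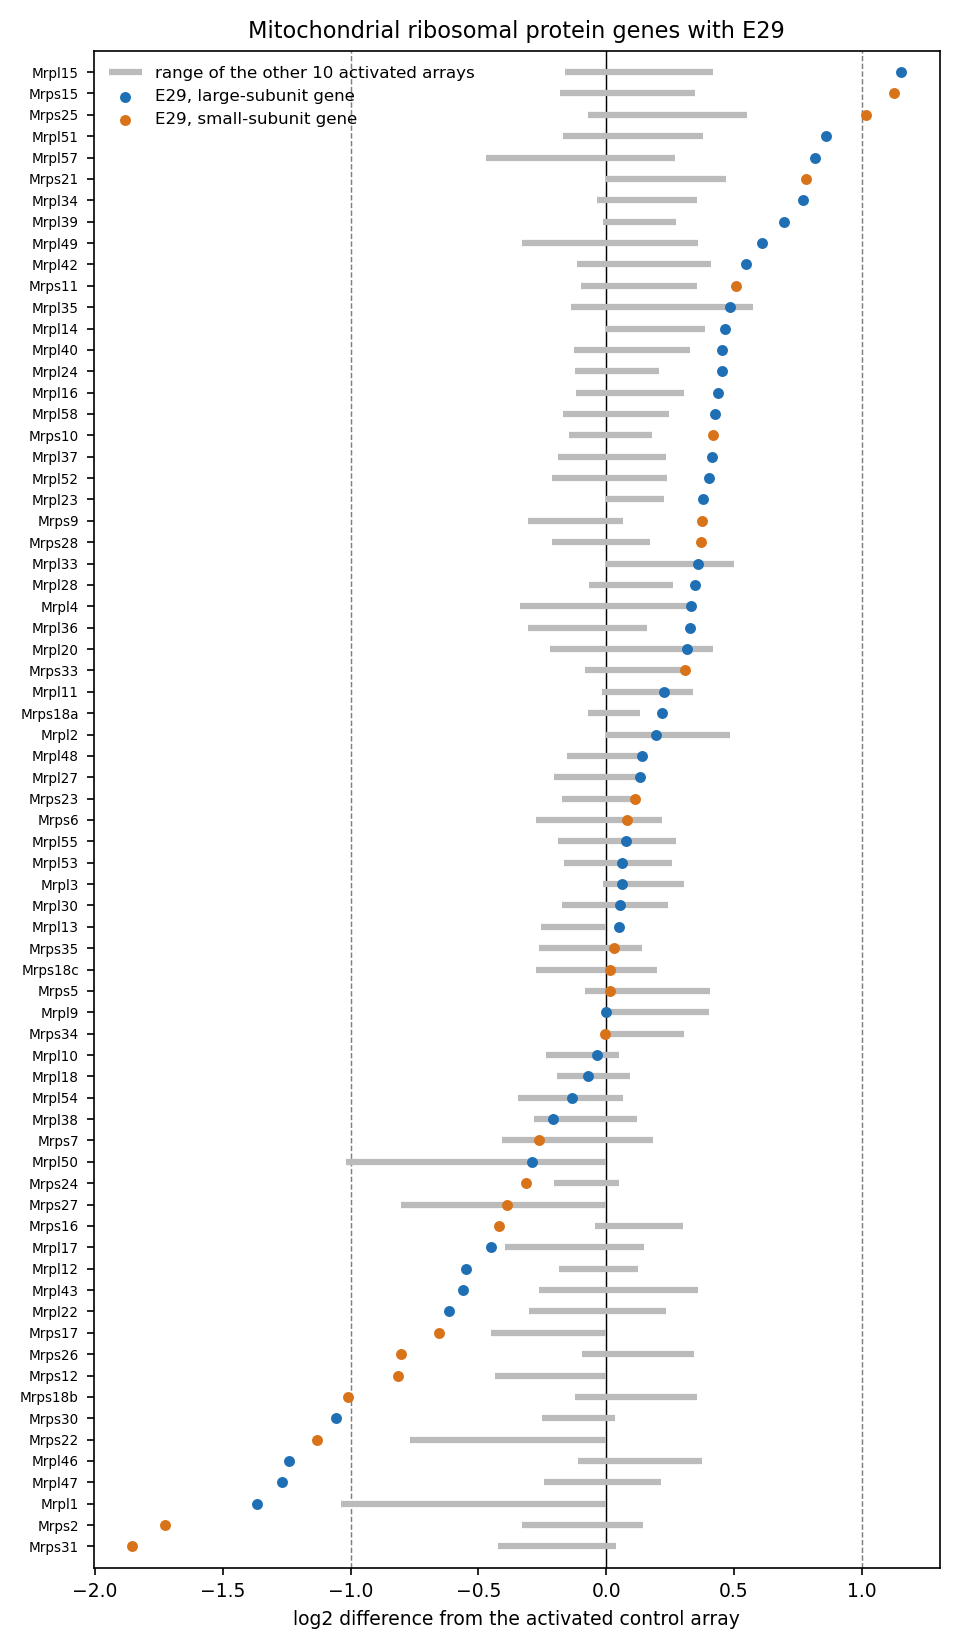
Log2 difference of E29 from the activated control for each of the 70 measured members, sorted from the largest increase at the top to the largest decrease at the bottom (blue, large subunit; orange, small subunit), with the range of the other 10 activated arrays, the control included, as grey bars. Dashed lines mark 2-fold, which 3 members passed upwards and 8 downwards; most points lie outside their grey bar.

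Smaller shifts with E29 ran through most of the list. Of the 70 members 28 were higher with E29 than on any of the other 10 activated arrays, which is 40.0%, against 53.3% of all 7988 genes. A further 18 members were lower with E29 than on any of those arrays, which is 25.7%, against 22.4% of all genes. A gene not detected on an array enters at that array's lowest detected level, its floor. The floor was 5.99 with E29, and 5.41 to 5.59 on the other activated arrays. All 70 members were detected with E29. The 53.3% includes genes that were not detected with E29 and stand at its floor, so the 40.0% and the 53.3% are not a like comparison. Such genes can be lowest with E29 only where every other activated array lies above 5.99. The 25.7% and the 22.4% are therefore not a like comparison either. By subunit the median change was 0.22 for 45 large-subunit genes, of which 1 was at least 2-fold higher and 4 lower. For 25 small-subunit genes it was 0.01, with 2 higher and 4 lower. By origin, 41 members shared with bacteria had a median of 0.13, with 2 higher and 3 lower, and 29 mitochondria-specific members a median of 0.08, with 1 higher and 5 lower. Of the 3 genes related to bacterial S18, Mrps18c was counted as shared and Mrps18a and Mrps18b as mitochondria-specific. Mrps18b is 1 of the 5 lower. These classes were described and not tested against each other.

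Set against the non-activated control, members with E29 again lay on both sides. Of 70 members 10 differed at least 2-fold, which is 14.3%, against 20.5% of all 7619 measured genes. The 3 higher were Mrps15 at 1.41, Mrps25 at 1.17 and Mrpl57 at 1.04 log2 units. The 7 lower were Mrps31 at -2.23, Mrps22 at -1.40, Mrpl1 at -1.26, Mrps2 at -1.17, Mrpl46 at -1.12, Mrps18b at -1.04 and Mrpl47 at -1.04. Both E29 comparisons share the E29 array. For 3 of these genes the call rested on the brightest probe: the other detected probes gave 0.46 and 0.59 for Mrps25, 0.04 for Mrpl47 and -0.36 for Mrps18b.

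Promoter windows of the members were searched for motifs of known regulators. RefSeq windows of 250 bases before to 50 after the gene start were matched for 67 of the 76 members, and for 27025 genes in all. Mrpl4, Mrpl13, Mrpl15, Mrpl19, Mrpl38, Mrpl54, Mrps28, Mrps34 and Mrps35 had no entry. The letters searched on both strands, each motif on its own and with overlaps between motifs allowed, were CGCANGCGC for NRF1, CCGGAAG for ETS factors such as GABP, AAGATGGCG for YY1, GGGCGG for Sp and KLF factors, TATAAA for the TATA box and CCAAT for the CCAAT box. NRF1, GABP and YY1 are known regulators of nuclear genes for mitochondrial proteins. The NRF1 letters were in 17 of 67 member windows, 25.4%, against 6.59% of all windows. For the ETS letters the shares were 37.3% of member windows and 9.12% of all windows, and for the YY1 letters 11.9% and 1.49%. The Sp letters were in 50.7% of member windows and 35.9% of all, the TATA letters in 5.97% and 14.2%, and the CCAAT letters in 38.8% and 37.9%. A match is a description of these letters and not a binding site.

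Of the 8 members at least 2-fold lower with E29, 1 window held the NRF1 letters and 2 the ETS letters. Of the 2 higher members with a window, 0 held either. Mrps18b and Mrps21 both hold the NRF1 and the ETS letters in their windows, and their E29 differences were -1.01 for Mrps18b and 0.78 for Mrps21. The level of Mrps21, the gene of a small-subunit protein shared with bacteria, was 10.55 with E29, against 9.76 in the activated control. Both windows are shown because members with the same letters lay on opposite sides with E29. They are given 5′ to 3′, with the NRF1 and ETS matches in capitals on either strand; they lie on the minus strand of GRCm38.p6, at chr17:35916391-35916690 for Mrps18b and chr3:95871465-95871764 for Mrps21, and are RefSeq's:
Mrps18b: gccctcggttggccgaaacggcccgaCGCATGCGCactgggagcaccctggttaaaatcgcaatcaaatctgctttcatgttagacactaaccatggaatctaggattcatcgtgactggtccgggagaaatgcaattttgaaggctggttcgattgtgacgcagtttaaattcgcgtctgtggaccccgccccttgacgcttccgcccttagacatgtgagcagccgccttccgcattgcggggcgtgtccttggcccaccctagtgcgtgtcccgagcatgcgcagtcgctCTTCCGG
Mrps21: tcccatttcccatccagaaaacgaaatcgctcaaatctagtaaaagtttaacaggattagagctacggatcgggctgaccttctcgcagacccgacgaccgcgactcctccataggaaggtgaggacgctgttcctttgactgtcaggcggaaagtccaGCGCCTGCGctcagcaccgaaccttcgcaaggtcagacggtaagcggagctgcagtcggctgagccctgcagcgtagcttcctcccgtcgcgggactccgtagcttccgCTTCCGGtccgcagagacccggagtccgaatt
The Nrf1 gene itself was not detected on the E29 array, and was at least 2.91-fold lower there than in the activated control, at the floor of 5.99 against 7.53. Whether Nrf1 transcript level bears on these members was not tested.

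Many members share their promoter region with a neighbour. Of the 67 members with a window 22 had another gene that starts within 500 bp upstream on the opposite strand, 32.8% against 9.91% of all genes. These formed 21 pairs, and in 10 of them both genes were measured with E29. In 4 of the 10 the partners had differences of opposite sign, and in 2 the gap exceeded 2-fold. The same counts were not made for other gene pairs, and 24.7% of all single genes passed 2-fold with E29. Whether these partners differed more than any other genes was not tested. One of the 2 pairs is Mrpl46 with Mrps11, above. The other is Mrpl47 with Ndufb5, a subunit gene of respiratory complex I whose start lies 308 bp away. Ndufb5 changed by 1.06 log2 units with E29 and Mrpl47 by -1.27, a gap of 2.33, which rests on the brightest Mrpl47 probe. Other pairs had like signs: Mrpl14 and Tmem63b gave 0.47 and 0.40, and Mrpl49 and the ribosomal protein gene Fau gave 0.61 and 0.36.

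The genes that build and serve the mitochondrial ribosome also spread with E29. Of 21 measured genes for ribosome assembly and ribosomal RNA maturation 8 were at least 2-fold lower, 38.1% against 14.5% of all genes, and 0 higher against 10.2%, with a median of -0.37 log2 units. The number lower was 7 under a common median, 8 under the median ratio and 13 under the reference genes. The shares of all genes lower were then 15.6%, 22.1% and 27.7%. Rpusd4, a pseudouridine synthase of the mitochondrial 16S ribosomal RNA, was at 6.10 with E29, against 8.59 in the activated control, 5.61-fold lower. Mterf3, which is needed for large-subunit assembly in mice, was 3.62-fold lower, and Mterf4, which guides the rRNA methyltransferase Nsun4, 2.88-fold lower. The rRNA methyltransferase genes Mrm3 and Mrm1 were at least 3.30-fold and 2.45-fold lower. The helicase genes Ddx28 and Dhx30 were at least 3.24-fold and 2.25-fold lower, and Trub2, another pseudouridine synthase gene, 2.04-fold lower. Where "at least" is written the gene was not detected with E29 and its level there is the floor of 5.99.

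In the machinery of mitochondrial DNA expression 3 of 12 measured genes were at least 2-fold lower with E29, 25% against 14.5% of all genes, and 0 higher. Under a common median, the median ratio and the reference genes 4, 5 and 8 of the 12 were lower. The shares of all genes lower were then 15.6%, 22.1% and 27.7%. Trmt10c, a subunit of the mitochondrial RNase P, was at least 5.27-fold lower. Tefm, the transcription elongation factor, was at least 4.36-fold and Mterf1a, a termination factor, at least 3.23-fold lower. The transcription factor gene Tfam gave -0.83 and the polymerase gene Polrmt -0.91 log2 units. Of 12 aminoacyl-tRNA synthetase and amidotransferase genes 2 were higher, Gatb by 2.62-fold and Lars2 by 2.09-fold, 16.7% against 10.2% of all genes. A further 3 were lower, 25% against 14.5% of all genes. Under a common median 1 of the 12 was higher, when 10.3% of all genes were. Under the median ratio and the reference genes 0 of the 12 were higher, when 1.51% and 0.428% of all genes were. The 3 lower genes were Mars2 by at least 4.17-fold, Ears2 by 2.81-fold and Qrsl1 by 2.45-fold. Of 8 translation factor genes Mtrf1l, a release factor gene, was 2.24-fold lower, 12.5% of the list against 14.5% of all genes. Under a common median 1 of the 8 was lower, when 15.6% of all genes were. Under the median ratio and the reference genes 2 of the 8 were lower, 25% when 22.1% and 27.7% of all genes were. Of 21 protein import genes 2 were lower, Timm9 by 3.51-fold and Timm10 by 2.06-fold, both of which encode small chaperones of the intermembrane space. This 9.52% lies below the 14.5% of all genes. With the common median, the median ratio and the reference genes 2, 3 and 4 of the 21 were lower. The shares of all genes lower were then 15.6%, 22.1% and 27.7%.

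Of 67 nuclear oxidative phosphorylation genes 8 were at least 2-fold higher with E29, 11.9% against 10.2% of all genes, and 0 lower. Their median was 0.32 log2 units, and 41 of the 67 lay above the median of all genes. Under a common median 8 of the 67 were still higher, 11.9% against 10.3% of all genes, and 0 lower. Under the median ratio and the reference genes 0 of the 67 were higher and 0 lower. Of all genes 1.51% and 0.428% were then higher, and 22.1% and 27.7% lower. The median of the list minus that of all genes was 0.067 as reported and 0.43 under these scalings. Of 53 cytosolic ribosomal protein genes 0 passed 2-fold in either direction, against 24.7% of all genes, and the median was 0.19. Under a common median 1 of the 53 was higher, against 10.3% of all genes. With each of the other 2 scalings 1 was lower, against 22.1% and 27.7%. Subunits of the mitochondrial ribosome that carry other names gave 0.33 for Dap3, -0.12 for Chchd1 and 0.41 for Ptcd3, and Gadd45gip1 was not detected. Among regulators of mitochondrial biogenesis the coactivator gene Ppargc1a was 2.36-fold higher with E29, at 7.63 against 6.39 in the activated control. The subunit genes of GABP gave 0.12 for Gabpa and -0.81 for Gabpb1. Esrra gave -0.34. Ppargc1b and Myc were not detected with E29, and Gabpb2 and Yy1 were not detected on any array.

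**Figure D4:**
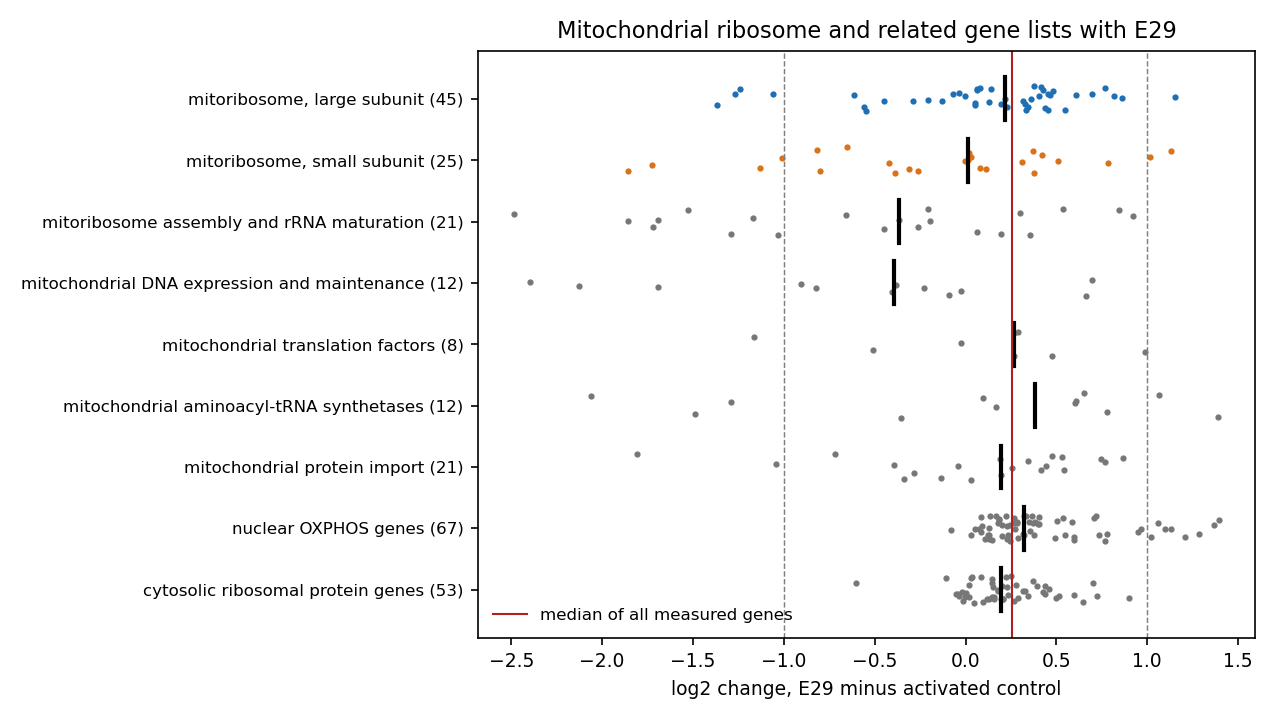
Log2 change with E29 against the activated control for measured genes of each list (points; number of genes in brackets), with list medians as black bars, the median of all measured genes as the red line and 2-fold as dashed lines. The assembly list has the median -0.37 and 8 genes beyond 2-fold downwards. The oxidative phosphorylation list has the median 0.32 and 8 genes beyond 2-fold upwards. The number higher was also 8 under a common median, where 10.3% of all genes were higher. It was 0 under the median ratio and the reference genes, where 1.51% and 0.428% of all genes were higher.

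With E4 the members differed less from the activated control than with E29. Of 70 members 2 were at least 2-fold lower, Mrpl1 and Mrpl50, and 0 higher, against 3.38% of all 7493 measured genes in either direction. At 1.5-fold Mrps27 and Mrps22 joined them, so that 4 of 70 were lower and 0 higher, 5.71%. Of all 7493 genes 718 were lower and 340 higher, 14.1% in either direction. Mrpl50, a mitochondria-specific large-subunit gene, was at 9.68 with E4, against 10.70 in the activated control, and the E4 array was the lowest of the 12. Mrpl1 was at 6.92 with E4, against 7.96 in the activated control. Mrps27, a small-subunit gene of the pentatricopeptide repeat family, was at 5.98 with E4, against 6.78 in the activated control. Mrps22 was at 8.45 with E4, against 9.21 in the activated control.

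The activated control was itself the highest of the 11 activated arrays for Mrpl1, Mrpl50, Mrps22 and Mrps27. With the median over the 10 activated arrays other than E4 as reference, the differences were -0.74 for Mrpl1, -0.83 for Mrpl50, -0.54 for Mrps22 and -0.38 for Mrps27, and 0 members then passed 2-fold. The next lower members with E4 were Mrps17 at -0.45 and Mrps12 at -0.43. The largest increases with E4 were 0.57 for Mrpl35, 0.50 for Mrpl33, 0.49 for Mrpl2, whose product lines the peptidyl transferase centre, 0.47 for Mrps21, 0.42 for Mrpl15 and 0.41 for Mrpl42. E4 was the highest of the 11 activated arrays for 10 members, 14.3%, against 5.18% of all genes, and the lowest for 7, 10.0%, against 10.9%. Genes not detected with E29 enter these shares of all genes at its floor, the highest floor of the arrays. All 10 members that were highest with E4 are large-subunit genes, among them Mrpl2, Mrpl3, Mrpl9 and Mrpl11, and so are 45 of the 70 measured members. The 7 lowest with E4 were Mrpl16, Mrpl49, Mrpl50, Mrpl51, Mrps6, Mrps23 and Mrps27, from both subunits. The subunits were not tested against each other. The median change with E4 was 0.21 for the large and -0.13 for the small subunit.

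In RefSeq's GRCm38.p6 the 4 members at least 1.5-fold lower with E4 span 8487 bp (Mrpl50), 12950 bp (Mrps22), 57230 bp (Mrpl1) and 70796 bp (Mrps27), a median of 35090 bp. The other 66 members have a median of 7447 bp. Over all genes the median span was 35440 bp for those at least 1.5-fold lower with E4 and 21000 bp for those within 1.5-fold. With E29 the 12 members at least 1.5-fold lower had a median span of 7446 bp, against 7632 bp for the 49 within 1.5-fold. Within the assembly list 2 genes were at least 2-fold lower with E4, Mrm1 and Nsun4, both by 1.01 log2 units.

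Activation itself left the members nearly in place. In the activated control 0 of 70 members differed 2-fold from the non-activated control, against 5.3% of all 7659 measured genes. At 1.5-fold 2 members were lower and 0 higher, 2.86%. Of all 7659 genes 613 were lower and 592 higher, 15.7% in either direction. The median change was -0.04 for the members and -0.03 for all genes. Mrpl51, a mitochondria-specific large-subunit gene, was at 5.67 in the activated control, against 6.58 in the non-activated control, a change of -0.92 close to the floor of 5.52. With the arrays scaled to the median ratio, scaled to reference genes, or in the authors' processed table, Mrpl51 passed 2-fold. Mrpl49, also mitochondria-specific and of the large subunit, was at 9.16 in the activated control, against 9.92 in the non-activated control, a change of -0.76. The other detected probes of Mrpl49 gave -0.35, -0.06 and -0.51.

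The further decreases on activation were -0.56 for Mrps35, -0.52 for Mrpl34, -0.50 for Mrpl33 and -0.44 for Mrpl37. The increases were 0.55 for Mrps2, 0.36 for Mrpl35, 0.30 for Mrps5, 0.28 for Mrps15, 0.24 for Mrpl30 and 0.23 for Mrpl47, and under the reference genes the value of Mrpl47 was -0.025. Mrps25 had disagreeing probes on activation, with 0.15 at the brightest and -0.54 and -0.57 at the others. The non-activated control lay above all 11 activated arrays for 10 members, 14.3%, against 14.9% of all genes, and Mrpl49, Mrpl51, Mrpl37, Mrps22, Mrps31 and Mrps35 were among them. It lay below all of them for 6 members, 8.57%, against 19.8% of all genes, namely Mrpl24, Mrpl30, Mrpl35, Mrps5, Mrps15 and Mrps25. The floor of the non-activated control, 5.37, was the lowest of the arrays, and genes not detected there enter the 19.8% at that floor. Of the related lists 2 synthetase genes passed 2-fold on activation, Ears2 by 2.13-fold and Mars2 by 2.03-fold higher. Among the regulators Esrra gave -0.74, Ppargc1a -0.58, Nrf1 -0.53 and Gabpb1 0.74 on activation. Myc, not detected in the non-activated control, was at least 1.70-fold higher in the activated control.

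With E33 0 of 70 members passed 2-fold, against 0.973% of all genes, and 1 passed 1.5-fold, against 7.18% of all genes. That member was Mrps27, at 6.04 with E33, against 6.78 in the activated control. The next lower were Mrps7 at -0.41 and Mrps2 at -0.33, and the largest increases were 0.43 for Mrps25, 0.39 for Mrpl14 and 0.37 for Mrpl9. Mrps27 was lower than the activated control on each of the 10 compound arrays, with -0.80 for E4, -0.34 for E5, -0.46 for E14, -0.38 for E18, -0.48 for E19, -0.62 for E20, -0.25 for E21, -0.52 for E23, -0.39 for E29 and -0.74 for E33. All of these differences use the same activated control array, which was the highest of the 12 arrays for Mrps27.

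For each of the other 7 compounds 0 of 70 members passed 2-fold. The background was 0.0947% of all genes for E5, 0.281% for E14, 0.299% for E18, 0.409% for E19, 0.0406% for E20, 0.107% for E21 and 0.041% for E23. The largest decrease and increase were Mrps27 at -0.34 and Mrps15 at 0.35 with E5, Mrps27 at -0.46 and Mrpl2 at 0.37 with E14, and Mrpl1 at -0.52 and Mrpl2 at 0.43 with E18. With E19 they were Mrpl1 at -0.80 and Mrps11 at 0.30, and with E20 Mrps27 at -0.62 and Mrps5 at 0.41. With E21 they were Mrpl57 at -0.47 and Mrps25 at 0.55, and with E23 Mrps27 at -0.52 and Mrpl20 at 0.42. With E23 the members had a median change of 0.09, against -0.01 for all genes, and 48 of 70 lay above the median of all genes.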

How the data were processed

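Total RNA from 12 samples was labelled from 400 ng of input and hybridised to Illumina bead arrays. The authors deposited a non-normalised table with the mean bead intensity and a detection p-value of every probe on every array, per the file headers. They also deposited a processed table of intensities, whose normalisation no source used here gives. Per the submitters' processing notes GenomeStudio 2010.3 was used. Whether cultures were pooled is not stated in the labels.

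The intensities were background-corrected from the detection p-values, quantile-normalised and converted to log2 by the neqc function (limma 3.58.1, R 4.3.3; offset 16), after a test on simulated data. Of 25697 probes 23978 had a gene name in the platform annotation, and all 76 symbols matched RefSeq's GRCm38.p6. A value below the lowest detected level of an array that did not detect the gene was raised to that level, and the change is then written as at least N-fold. Python 3.11.15 (pandas 2.3.3, matplotlib 3.10.9, numpy 2.4.6) served for counts and figures. With 1 array per group there is no test and no standard error, and the number of arrays limits the precision.

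The members, the 13 gene lists (193 genes, 159 with a probe) and the rule for named genes were chosen with earlier results of these data known. The rule named the 6 largest increases and decreases for activation, E29 and E4, 3 each way for E33 and the largest each way for other compounds, every member past 2-fold, Mrpl12, Mrps12, Mrpl41 and Mrps18a to Mrps18c, the list genes past 2-fold or with the largest change, the regulators, and both probes where probes disagreed. Genes named beyond it (Mrpl10, Mrps11, Mrps26, Mrpl3, Mrpl24, Tfam, Polrmt the promoter neighbours, and those listed where an array was highest or lowest) were chosen after their values were seen. Subunit membership and the classes shared with bacteria and mitochondria-specific are from general knowledge of the mitochondrial ribosome. Alternatives covered scaling, background, offset, probe choice, detection, the authors' processed table and the reference array.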

Additional observations from a re-analysis of the deposited data

How the results depend on the processing

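No paired analysis was possible because each group is 1 array. With E29 the count of members at least 2-fold higher, 3 as reported, was 0 under scaling to the median ratio (chosen after seeing the data), scaling to reference genes, no background correction and an offset of 50, and 1 with the other 10 activated arrays' median as reference. The count at least 2-fold lower, 8 as reported, was 15 under reference genes and 2 without background correction, which left Mrps31 and Mrpl46. The median of the members minus that of all genes, -0.157 as reported, was -0.038 under scaling to a common median, the median ratio and reference genes. These 3 scalings shift each array by a constant, so the -0.038 is the same in all 3 by construction. The difference reversed to 0.03 with no detection filter and no bound, where the median of all genes was 0.044 and undetected genes enter. With E4 the count of 2 lower was 1 under a common median and in the authors' processed table, 4 under reference genes, and 0 without background correction, with an offset of 50 and against the other 10 activated arrays. The 1.5-fold count of 4 with E4 was 8 under reference genes and 2 against the other 10 activated arrays. On activation the count of 0 lower was 1 under the median ratio, reference genes and the authors' processed table, and the 1.5-fold count of 2 was 7 under reference genes and 1 without background correction and with the mean over detected probes. The 1.5-fold count of 1 with E33 was 0 under reference genes, no background correction, an offset of 50 and the other 10 activated arrays. The median of all genes with E29 was 0.255 as reported, 0.338 (common median), -0.071 (median ratio) and -0.345 (reference genes), and single members shift with it. Omitting background correction and a larger offset pull dim values together by construction. Of the members named for E29 (14), E4 (12) and E33 (6), 0 changed sign in the alternatives run, and of 12 named for activation 1 did, Mrpl47, with 0.232 as reported and -0.025 under reference genes. The scalings were also run on the related gene lists with E29, a choice made after seeing the data. The lowest detected level, 5.99 log2 units with E29, limits how large a decrease of a dim gene could be seen.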
